A study of Trichoderma asperellum with 9 samples.

Results

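Among the 9396 gene models measured in strain Ts93 of Trichoderma asperellum, 154 were expressed in a stepwise order, highest with copper, intermediate in the control and lowest with BCS. T. asperellum is a mould of soil and plant roots, and species of Trichoderma are applied against plant diseases. The samples were total RNA of the wild-type strain given 1 mM copper ions, 0.5 mM BCS or no addition named in the labels (control), with 3 libraries in each of the 3 groups, and all groups share the Ts93 background. The labels do not spell out BCS, an abbreviation widely used for the copper chelator bathocuproine disulfonate. That reading is background, and whether the groups form a series of copper supply was not measured. Culture medium, exposure time and whether the libraries came from separate cultures were not stated in the labels, so the spread between libraries may be technical.

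The 154 were selected on their FPKM (fragments per kilobase of model, scaled to the library's read total) in all 9 libraries. With K, B and C as the means with copper, with BCS and in the control, the copper step, log2((K + 1)/(C + 1)), was at least 0.5 and the BCS step, log2((B + 1)/(C + 1)), was at most -0.5. Every copper library lay above every control library, every control library lay above every BCS library, and K was at least 5 FPKM. Members were thus chosen by the same values that the steps are made of, and the steps below describe the chosen models and carry no test. The 154 models made up 1.64% of the table and 1.96% of the 7857 models that reached 1 FPKM in 3 or more libraries. All 154 passed that filter. The number meeting the rule rested in part on BCS replicate 2, without which 280 models met it. Leaving out any library removes order conditions, which by itself can admit more models. The same conditions turned round (highest with BCS, lowest with copper, BCS mean of at least 5 FPKM) were met by 119 models. That count was made on FPKM only and not repeated under other scalings, so no excess of either direction is read from it.

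Copper is both a cofactor and a poison for fungi. Enzymes such as cytochrome c oxidase, copper/zinc superoxide dismutase and the laccases need it, while an excess of free copper ions damages membranes and displaces other metals from proteins. In Saccharomyces cerevisiae, copper excess turns on metallothionein genes through the activator Ace1, and copper shortage turns on genes for high-affinity uptake through the activator Mac1, so genes can follow copper in either direction. No identifier of the deposited table (0 of 9396) occurs among the 12041 RefSeq genes of T. asperellum FT101, and the table itself gives no gene names. No function can therefore be given to any of the 154 models, and no sequence is shown. They are called by their identifiers, of which 128 are numbered (93-3_5.6A and a number) and 26 are supplementary, with identifiers of the type of Novel00346.

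**Figure D1:**
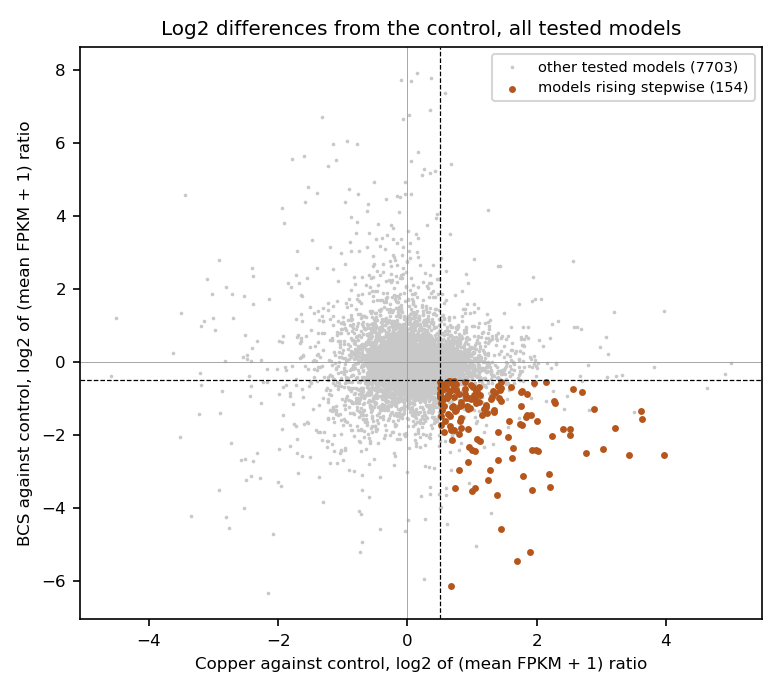
Copper step (x axis) against BCS step (y axis), each the log2 ratio of mean FPKM + 1 to the control, for 154 models rising stepwise (brown) and 7703 other tested models (grey). Dashed lines mark the limits of 0.5 and -0.5; grey points beyond both lines failed the order of single libraries or the limit on the copper mean.

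Library totals, recovered from the FPKM values, ranged from 12335534 to 12836226 reads with copper, from 12338460 to 14851276 with BCS and from 13198011 to 17142918 in the control. The 154 models took 2.33%, 2.71% and 3.07% of these reads in copper replicates 1, 2 and 3. Their share was 0.348%, 0.444% and 0.368% with BCS, and 1.2%, 1.05% and 1.26% in the control. The groups did not overlap, as the choice of models requires. The mean shares were 2.70% ± 0.372 with copper, 0.387% ± 0.0509 with BCS and 1.17% ± 0.110 in the control (SD, n = 3 each), so the copper share was 2.31 times and the BCS share 0.331 times that of the control. A change in the share of cells that express a model and a change in its RNA per cell cannot be told apart in such bulk samples.

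**Figure D2:**
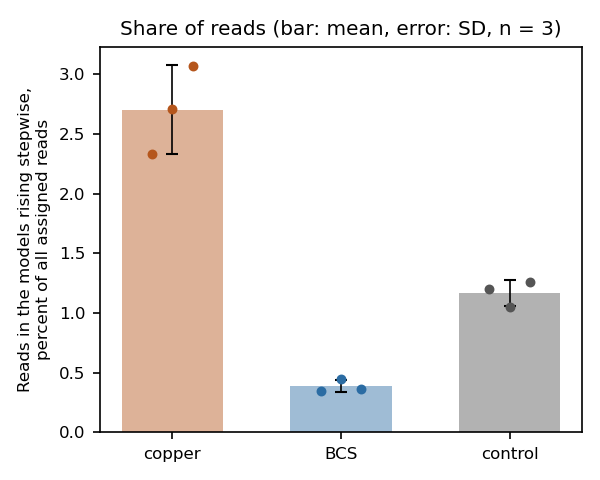
Percent of all assigned reads that fell in the 154 models, for each library (points), with the group mean (bar) and SD (error bar, n = 3). The copper libraries lie at 2.33% to 3.07%, the BCS libraries at 0.348% to 0.444% and the control libraries at 1.05% to 1.26%.

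The typical member was moderately expressed. The median of the group means over members was 56.8 FPKM with copper, 6.71 with BCS and 23.4 in the control. Means ranged from 5.05 to 2724 FPKM with copper, from 0.0383 to 268 with BCS and from 0.664 to 1652 in the control. With copper 49 members averaged at least 100 FPKM, against 7 with BCS and 26 in the control. At the low end, 27 members averaged under 1 FPKM with BCS and 3 did so in the control.

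Steps varied widely in size. The copper step had a median of 1.02 and ran from 0.50 to 3.97, with 25% of members under 0.69 and 25% above 1.61. The BCS step had a median of -1.22 and ran from -0.53 to -6.14, with 25% of members below -1.87 and 25% above -0.83. Over all tested models the medians were 0.11 for the copper step and -0.07 for the BCS step, so relative to the whole table the member medians lay at 0.91 and -1.14. A log2 step of 1 or more was reached with copper by 80 members, with BCS by 93, on both sides by 58 and on neither side by 39. A step of 2 or more was reached with copper by 21 members, with BCS by 35 and on both sides by 9.

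The whole span, from BCS to copper, had a median of 2.34 log2 units and ran from 1.06 to 7.15. The control divided it near the middle in the median member, with 52.8% of the log2 span lying between BCS and control, but single members ranged from 20.6% to 90.2%. The BCS step was the larger on the log2 scale in 93 members and the copper step in 61. This majority depended on the scaling and on single libraries. The BCS step was the larger in 72 of the 154 on the TPM scale (each library rescaled to 1 common sum), in 102 after median-of-ratios scaling, in 101 after quantile normalization and in 77 without BCS replicate 1. On the FPKM scale without logarithms the order was different, since the difference in FPKM between copper and control was the larger in 130 members and that between BCS and control in 24. Equal log2 steps always give the larger FPKM difference above the control, so these counts follow in part from the scale.

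**Figure D3:**
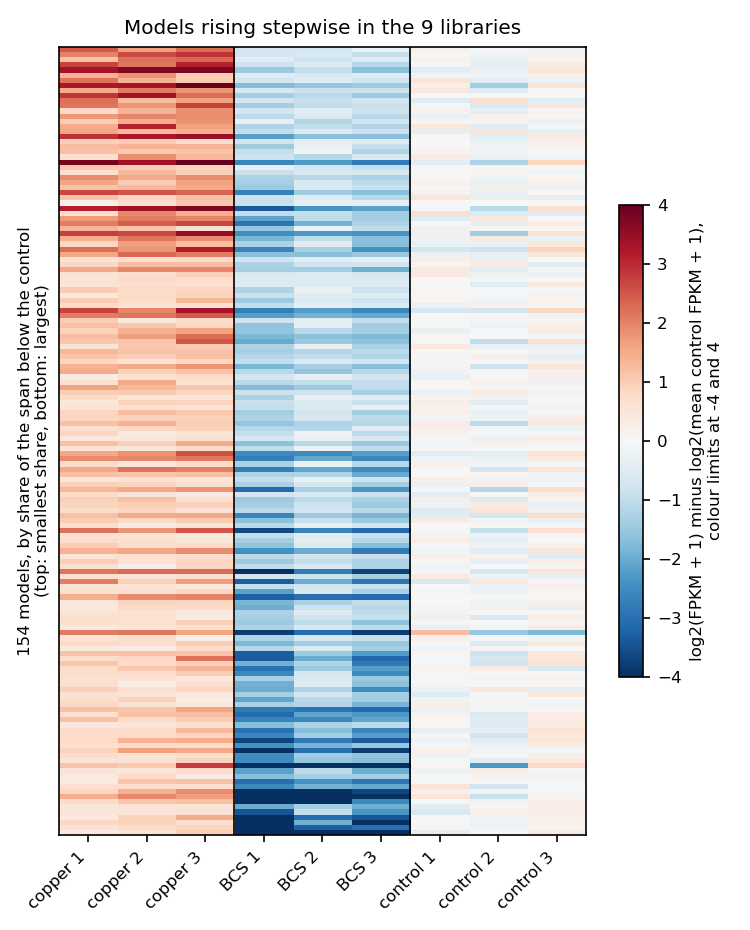
Log2(FPKM + 1) of each of the 154 models (rows) in each library (columns), minus log2 of its mean control FPKM + 1. Rows are ordered by the share of the log2 span that lies between BCS and control, from 20.6% (top) to 90.2% (bottom), and the colour scale stops at -4 and 4.

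By the balance of the steps the members fall into 3 sets, drawn after their values were seen. In 107 members the steps were within 2 times of each other, with medians of 1.01 for copper and -1.08 for BCS. In 31 members the BCS step was more than 2 times the copper step, with medians of 0.73 for copper and -2.14 for BCS. These 31 had a median of 92.3 FPKM with copper, 11.4 with BCS and 47.9 in the control. In 16 members the copper step was more than 2 times the BCS step, with medians of 2.05 and -0.81. The median of the 16 was 11.9 FPKM with copper, 0.711 with BCS and 1.70 in the control, but single means reached 247 FPKM with BCS and 407 in the control, both in 93-3_5.6A4758. Of the 16, 10 averaged under 1 FPKM with BCS, where the added 1 FPKM in the ratio limits how far a step can reach below the control.

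The largest copper step belonged to 93-3_5.6A1249 (fitted length 381 bases). It had 215, 159 and 336 FPKM with copper, 1.49, 2.12 and 1.17 with BCS, and 10.3, 5.51 and 26.6 in the control. The lowest copper library thus lay well above the highest control library, although the control libraries themselves differed widely. The means were 236 ± 90.6 FPKM with copper, 1.59 ± 0.484 with BCS and 14.2 ± 11.1 in the control (SD, n = 3 each), a copper step of 3.97 and a BCS step of -2.55. The BCS values rest on 7, 12 and 6 reads.

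Model 93-3_5.6A4882 (1017 bases) had the next largest copper step, 3.63. It had 35.9, 36.7 and 68.3 FPKM with copper, 0.159, 0.331 and 0.438 with BCS, and 3.50, 0.459 and 4.64 in the control. Control replicate 2 barely exceeded the highest BCS library, so its place in the middle rests on a gap of 8 reads in that control library to 6 reads in BCS replicate 3. The BCS step was -1.56. The next number, 93-3_5.6A4883, singled out after its values were seen, also belonged to the members, with steps of 3.03 and -2.38. It had 82.5, 74.9 and 139.6 FPKM with copper, 1.21, 1.47 and 1.37 with BCS, and 13.4, 3.62 and 16.7 in the control. In both models replicate 3 was the highest library with copper and in the control, and replicate 2 the lowest control library.

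Model 93-3_5.6A0230 (207 bases) combined large steps on both sides, 3.43 with copper and -2.55 with BCS, so that the smaller of its steps was the largest among the members, followed by that of 93-3_5.6A1249. Its values were 301, 360.3 and 457 FPKM with copper, 2.35, 5.53 and 6.82 with BCS, and 31.8, 15.2 and 53.7 in the control. It had the shortest fitted length of the 154.

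The lowest BCS step belonged to Novel01429 (1153 bases). It had 2161, 2498 and 3221 FPKM with copper, 15.3, 27.7 and 24.1 with BCS, and 1268, 1554 and 2133 in the control. Its BCS libraries stood far below all others, while copper and control nearly touched: the lowest copper library exceeded the highest control library by 1.01 times on the FPKM + 1 scale. The steps were -6.14 with BCS and 0.67 with copper, and 90.2% of the span lay between BCS and control. This model alone supplied 19.5% of the reads of all members in control replicate 3.

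Model 93-3_5.6A2564 (741 bases) came next with a BCS step of -5.46 and had the widest span of all members, 7.15. It had 521, 722 and 608 FPKM with copper, 2.63, 5.45 and 2.00 with BCS, and 266, 102 and 203 in the control. A BCS step of -4 or lower was reached by 4 members, and the other two, singled out after their values were seen, were 93-3_5.6A0483 and 93-3_5.6A4842. Model 93-3_5.6A4842 had 964, 1450.4 and 1977 FPKM with copper, 7.86, 15.9 and 40.8 with BCS, and 627, 476 and 504 in the control, a BCS step of -4.58 and a copper step of 1.45.

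The most abundant member with copper was Novel01669 (576 bases), with 2234, 2969.9 and 2969 FPKM. It had 307, 299 and 199 FPKM with BCS, and 986, 566 and 744 in the control. Unlike Novel01429, the next in abundance, it divided its span almost evenly, with a copper step of 1.83 and a BCS step of -1.51. A copper mean of at least 1000 FPKM was reached by 5 members, and the others, singled out after their values were seen, were 93-3_5.6A4842, Novel01716 and 93-3_5.6A4758. Novel01716 had 879, 1162 and 1367 FPKM with copper, 27.5, 57.5 and 93.1 with BCS, and 211, 165 and 266 in the control. Model 93-3_5.6A4758 had 808, 1133 and 1407 FPKM with copper, 330.1, 178 and 234 with BCS, and 437, 441 and 343 in the control, and BCS replicate 1 came close to the lowest control library.

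Of the supplementary models, Novel01429 had the widest span and Novel00346 (542 bases) the next, 5.27. Novel00346 had 48.6, 28.6 and 76.3 FPKM with copper, 0.150, 0.621 and 0.274 with BCS, and 3.77, 3.55 and 12.7 in the control. Its BCS values rest on 1, 5 and 2 reads, and its BCS step was -2.51.

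The clearest separation of neighbouring groups was seen in Novel01011 (1186 bases). It had 21.1, 21.9 and 27.6 FPKM with copper, 0.137, 0.397 and 0.25 with BCS, and 4.34, 4.62 and 3.62 in the control. On the FPKM + 1 scale its lowest copper library was 3.92 times its highest control library, and its lowest control library 3.31 times its highest BCS library. Model 93-3_5.6A0335 (2217 bases) followed, with 106, 116 and 111 FPKM with copper, 0.439, 2.46 and 0.837 with BCS, and 22, 13.7 and 33.7 in the control, and gaps of 3.07 and 4.24 times. Such clear gaps were not typical. On the same scale the smaller gap had a median of 1.22 times, 34 members had both gaps at 1.5 times or more, 15 had both at 2 times or more, and 35 had a gap under 1.1 times.

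**Figure D4:**
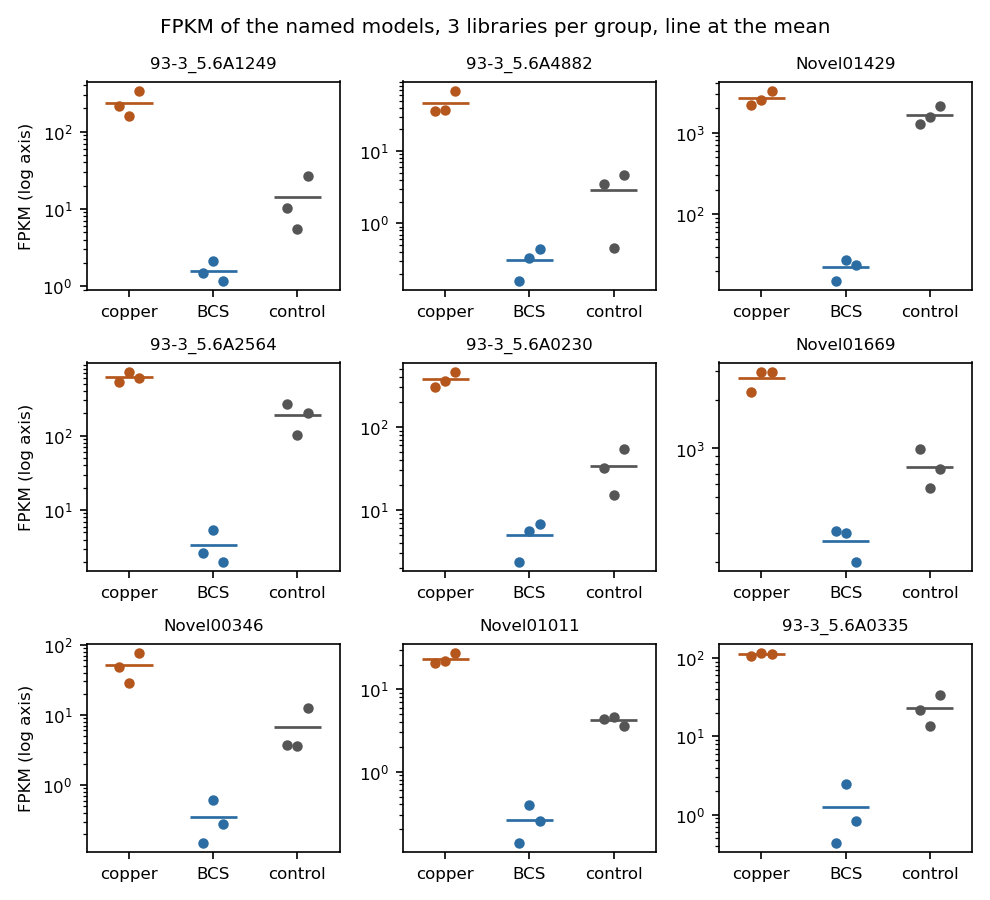
FPKM (log axis) of 9 members named by rule, in the 3 libraries of each group (points, replicates 1 to 3 from left to right) with the group mean (line). In every panel the copper libraries lie above the control libraries and these above the BCS libraries; in Novel01429 the copper and control groups nearly touch, at 2161 and 2133 FPKM.

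Values just inside and outside the limits show how fine the choice was. The member nearest to the copper limit, 93-3_5.6A4715, had means of 56.2 FPKM with copper, 21.4 with BCS and 39.4 in the control and a copper step of 0.501, and 93-3_5.6A6238 missed it with 0.494. Nearest to the BCS limit, Novel00243 had a step of -0.532 and 93-3_5.6A6023 missed it with -0.497. At the limit on abundance, Novel02250 averaged 5.05 FPKM with copper and Novel00133 missed it with 4.50 FPKM.

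Spread between libraries of a group was somewhat larger in the members than in the whole table. The median coefficient of variation over members was 15.4% with copper, 34.7% with BCS and 23.1% in the control. Over all tested models it was 13.9% with copper, 26.1% with BCS and 19.9% in the control. On the FPKM + 1 scale the highest library of a group was at least 4 times the lowest in 0 members with copper, in 3 with BCS and in 3 in the control. The 3 in the control, singled out after their values were seen, were 93-3_5.6A0483, 93-3_5.6A6385 and 93-3_5.6A1249. Model 93-3_5.6A6385 had 45.1, 5.87 and 4.76 FPKM in the control libraries, against 79.2, 83.8 and 57.1 with copper and 0.415, 1.34 and 0.422 with BCS, so control replicate 1 alone lay near the copper level. The 3 with BCS, also singled out after their values were seen, were 93-3_5.6A6158, 93-3_5.6A4842 and 93-3_5.6A3430.

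The rule set no order of the libraries within a group, but it compared the highest and lowest library of neighbouring groups, so the order of replicates is not independent of the choice of members and is given as a description. With copper, replicate 3 was the highest of its group in 73 of 154 members (47.4%), against 20.4% of all tested models, and replicate 1 the lowest in 75 (48.7%), against 24.6%. With BCS, replicate 2 was the highest in 118 members (76.6%), but also in 67.6% of all tested models. In the control, replicate 3 was the highest in 78 members (50.6%), against 34.5%, and replicate 2 the lowest in 84 (54.5%), against 33.2%. The median member lay 0.15 log2 units below its group mean in control replicate 2, while the median over all tested models lay at -0.01. In 48 members replicate 3 was the highest of both the copper and the control group. The share of all tested models with this joint order was not computed, so nothing is read from the 48. Among the 21 members with a copper step of at least 2, replicate 3 was the highest copper library in 15 and the highest control library in 16. Among the 133 with a smaller copper step the numbers were 58 and 62. These counts describe single libraries, whose members are measured together, and were not tested. A shared replicate number marks no shared culture or day in the labels.

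**Figure D5:**
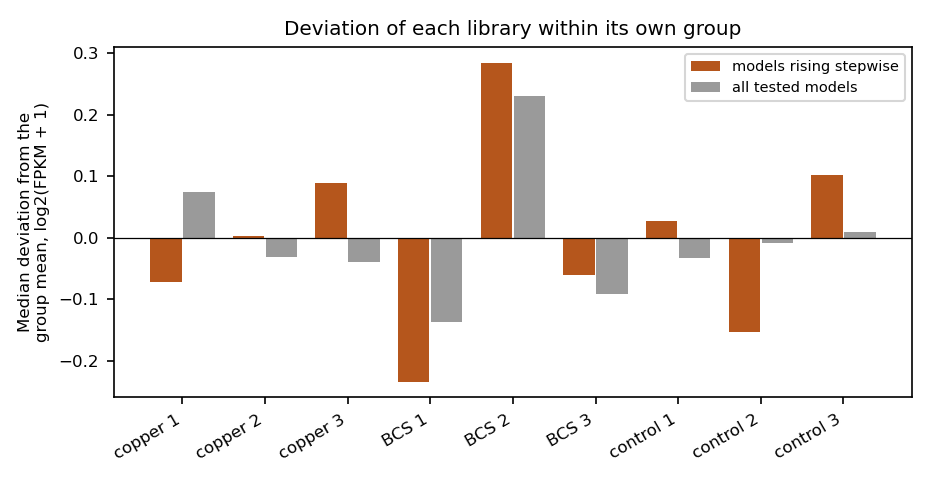
Median deviation of each library from the mean of its own group, in log2(FPKM + 1), for the 154 models rising stepwise (brown) and all 7857 tested models (grey). Copper replicate 3 and control replicate 3 lie above their group mean for the members, at 0.09 and 0.10, and control replicate 2 lies below it, at -0.15; BCS replicate 2 lies high for both sets.

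Many members were read only a few times in the BCS libraries. With copper every member had at least 24 reads in each library, and the median over members of the lowest copper library was 613.5 reads. In BCS replicates 1, 2 and 3, 29, 15 and 22 members had under 10 reads, against 2, 5 and 3 members in control replicates 1, 2 and 3. In 31 members at least 1 BCS library had under 10 reads, and in 6 members at least 1 had none. A count of 0 still allows up to 3 reads, by counting error alone. In 21 members all BCS libraries were under 1 FPKM, and in 16 of them all control libraries were also under 5 FPKM.

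Model type and fitted length were not used by the rule. Supplementary models made up 16.9% of the members (26 of 154), against 18.3% of the tested models. The 128 numbered members all had lengths divisible by 3, as did 99.9% of the tested numbered models with at least 50 reads, which marks coding lengths throughout. The median of the members was 1018.5 bases and their range ran from 207 to 4284 bases. Over those 6410 tested numbered models the median was 1143 bases. Coding lengths under 600 bases were found for 19 numbered members (14.8%), against 15.4% of tested numbered models. The 26 supplementary members had a median of 1551 bases, against 1996 bases over tested supplementary models.

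Some members carried adjoining numbers. Of the 128 numbered members, 15 (11.7%) had another member at the number directly before or after, while of 6290 tested numbered models outside the set 209 (3.32%) had a member there. Nothing in the labels or the table says whether the numbers follow the order of genes on a chromosome. The 15 members formed 6 pairs and 1 run of 3. The run, singled out after its values were seen, consisted of 93-3_5.6A0482, 93-3_5.6A0483 and 93-3_5.6A0484. Model 93-3_5.6A0482 had 124, 134 and 343 FPKM with copper, 6.58, 18.1 and 7.67 with BCS, and 75.6, 47.9 and 103 in the control. Model 93-3_5.6A0483 had 137, 131 and 432 FPKM with copper, 1.02, 0.543 and 0.599 with BCS, and 65.1, 11.7 and 109.5 in the control, a BCS step of -5.20. Model 93-3_5.6A0484 had 38.6, 39.5 and 105 FPKM with copper, 3.59, 5.58 and 5.0 with BCS, and 17.2, 8.38 and 27.3 in the control. In all of the run, replicate 3 was the highest library with copper and in the control, and replicate 2 the lowest control library. Among the pairs, only 93-3_5.6A4882 and 93-3_5.6A4883 had this order in both models. In 93-3_5.6A4534 replicate 2 was the highest library with copper and in the control, and in 93-3_5.6A4535 replicate 1 was. Adjoining members thus did not in general share an order of libraries.

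A fit of limma to all 9 libraries gives the spread of each model but uses the values that chose the members, so nothing is read from its counts. Of the 154 members, 85 were called higher with copper than in the control at an adjusted p under 0.05, where 6.66% of all tested models were. Called lower with BCS than in the control were 121 members, where 9.84% of all tested models were. These comparisons share the control libraries. Between copper and BCS directly all 154 were called higher with copper, where 23.9% of all tested models were. Without copper replicate 2, 50 members were called higher with copper than in the control, beside 176 of all 7767 tested models. Without copper replicate 3 the numbers were 46 members and 181 of 7776 tested models. With all libraries 523 of 7857 tested models were called so, and calls thus fell across the table as well as in the members.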

How the data were processed

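RNA-seq of 9 libraries was analysed from 1 table that the authors deposited, of FPKM values with 1 column per library and replicates not pooled. The submitters' processing notes name TopHat2 2.0.12 and Bowtie2 2.2.3, HTSeq 0.6.1, and DESeq 1.18.0, without saying what each did. They also give mm8, a mouse build; the genome and annotation of the models are not given in those notes. Read totals and model lengths were recovered as the whole numbers that make each FPKM a whole number of reads (tolerance 0.01 reads, smallest fitting length), a step tested on simulated data. Intervals were not computed, and read numbers carry counting error as well as the spread between libraries.

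Members were found by the rule in the report. They, the lists and the sets were chosen with earlier results of these data known. limma 3.58.1, run in R 4.3.3 with its trend option, was fitted to log2(FPKM + 1) of the 7857 models with at least 1 FPKM in 3 or more libraries, with 3 group means, no block and Benjamini-Hochberg adjustment over all of them. Log2 steps on this scale understate changes of weak models. Named members were, at most 2 each, those with the largest copper step, the lowest BCS step, the largest smaller step, the highest copper mean, the widest span among supplementary models and the largest least gap, plus those at the limits; any others are marked. Alternatives changed the pseudocount, filter, limits, scaling, block and libraries used. Python 3.11.15 was used for the rest.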

Additional observations from a re-analysis of the deposited data

How the results depend on the processing

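Of 116 alternative values, 106 moved a count by at most 1.5 times or a median by at most 1 SD between replicates. None changed sign (0 of 116), but counts have no sign and the rule largely fixed that of the members' medians, so nothing is read from this. The limit of 1.5 times also passes the fall from 93 members with the larger BCS step to 72 on the TPM scale. The number of members depended on the limits: 58 models met a step of 1 on each side, 258 a step of 0.25, and 299 when only group means were used. It was 110 after median-of-ratios scaling, 125 after quantile normalization and 184 on the TPM scale, and 94 of the 154 members met the rule under all 3. Leaving out 1 library, which also removes order conditions from the rule, gave 154 to 280 models, the highest without BCS replicate 2. The median copper step was 0.87, 0.89 and 1.14 after median-of-ratios scaling, quantile normalization and on the TPM scale; these moved the median of all tested models to -0.04, -0.02 and 0.23, and the members' distance from it was 0.91, 0.92 and 0.91. The median BCS step was -1.47 with a pseudocount of 0.1. Members called higher with copper than in the control numbered 46 to 110 when 1 library was left out. The 46 were found without copper replicate 3, where 181 of 7776 tested models were called so. The 110 were found without BCS replicate 2, where 805 of 7780 were. With the replicate number as a block, 72, 108 and 154 members were called for copper and BCS against control and copper against BCS. In the same directions 377, 660 and 1628 of all 7857 tested models were called. Deviations of same-numbered libraries correlated at -0.28 to 0.21, and those of differently numbered libraries at -0.31 to 0.33. Deviations from the mean of so few libraries cannot show whether a number marks a shared culture or day, so pairing remains unknown. The causes of these shifts were not tested. In 31 members a BCS library held under 10 reads, and how far depth or the added 1 FPKM bounds their BCS step was not tested.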

Other observations

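Near the rule lay further models. The size conditions on both steps and on the copper mean were met by 299 models, of which 145 failed the order of single libraries. Only the order of copper and control libraries was missed by 49 models, and only the order of control and BCS libraries by 68. Only the limit on the copper step was missed by 57 models, only that on the BCS step by 32 and only that on abundance by 18.

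Numbered models outside the set whose number adjoins that of a member had a median BCS step of -0.22 (209 models) and a median copper step of 0.15. The other tested numbered models had medians of -0.05 and 0.13 (6081 models). These values are descriptions and were not tested.

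The sources of reads within the set differed between groups. With copper, Novel01429 supplied the most member reads in replicates 1 and 3 (10.7% and 12.1%) and Novel01716 in replicate 2 (11.3%). With BCS, 93-3_5.6A4758 supplied the most in all 3 libraries, with 20.7%, 8.73% and 13.8%. In the control Novel01429 did so, with 12.2%, 17.1% and 19.5%.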
